A study of Mus musculus with 10 samples.

Results

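Bile acids are the end products of cholesterol breakdown in hepatocytes, and the 10 genes described here carry that pathway. They are the synthesis enzymes Cyp7a1, Cyp8b1, Cyp27a1, and Cyp7b1, the conjugating enzymes Slc27a5 and Baat, and the transporters Slc10a1 and Abcb11. The bile acid receptor Nr1h4 and the nuclear receptor Nr0b2 complete the 10. The 10 genes were chosen by name for these roles. All were found among the 21939 genes of the count table and passed the filter on low counts, which 13641 genes passed. Hepatocytes were isolated from male C57BL/6J mice, 8 to 9 weeks old at injection, 12 days after AAV8Cre, an adeno-associated virus in which the hepatocyte-specific thyroxine-binding globulin promoter drives Cre recombinase. The control mice were wild-type C57BL6/j animals that received the same virus (3 libraries), Nrf2 KO mice carried floxed Nrf2 alleles (2 libraries), p65 KO mice carried floxed alleles of p65, a subunit of NF-κB encoded by Rela (2 libraries), and DKO mice carried both (3 libraries), with 1 library per mouse. Cre and virus were therefore shared by every group, whereas floxed alleles were present only in the knockouts, and the livers were dissociated and the hepatocytes enriched by low-speed and Percoll centrifugation.

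In the classical pathway Cyp7a1 catalyzes the rate-limiting first step and Cyp8b1 directs the product toward cholic acid, whereas Cyp27a1 and Cyp7b1 carry the alternative pathway. Slc27a5 activates unconjugated bile acids with coenzyme A, and Baat joins bile acids to taurine or glycine. Abcb11 (the bile salt export pump) secretes them into the canaliculus, and Slc10a1 (NTCP) takes them up again from portal blood. Bile acids bind the receptor encoded by Nr1h4 (FXR), which induces Abcb11 and Nr0b2 (SHP), and Nr0b2 in turn represses Cyp7a1 and Cyp8b1.

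Of these 10 genes, 4 differed from control in p65 KO hepatocytes (adjusted p of at most 0.05 in edgeR), beside 14.9% of all genes tested. Cyp7a1 was 8.97-fold higher, and Nr0b2, Abcb11, and Cyp8b1 were lower, at 0.447, 0.665, and 0.693 of the control level. With the libraries scaled to equal totals, 2 of the 10 passed as higher and 0 as lower, beside 1632 and 355 of all genes. Under the scaling used otherwise, 1109 of all genes passed as higher and 923 as lower. In DKO hepatocytes Cyp7a1 was 9.13-fold higher, and Abcb11 was at 1.01 of the control level. Abcb11 also differed between DKO and p65 KO in edgeR (adjusted p = 0.0354). That difference was lost with equal totals (0.151) and with only these 2 genotypes in the model (0.111). Other alternatives that removed calls are given below. In Nrf2 KO hepatocytes 0 of the 10 passed the edgeR test, beside 0.726% of all genes (99). By DESeq2 1, Cyp7b1, passed, beside 320 of all genes. An unadjusted p under 0.05 in edgeR was found for 3 of the 10, beside 9.38% of all genes. The sequences before the starts of Nr0b2, Abcb11, and Cyp8b1 are shown first because these genes fell in the same comparison.

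The 250 bases upstream of the start of the canonical transcript (GENCODE M39) were read from GRCm39 on the strand of each gene, and the last base printed is the one before the start. They are chr4:133280428-133280677 (plus strand) for Nr0b2, chr2:69173316-69173565 (minus strand) for Abcb11, and chr9:121745372-121745621 (minus strand) for Cyp8b1.
Nr0b2: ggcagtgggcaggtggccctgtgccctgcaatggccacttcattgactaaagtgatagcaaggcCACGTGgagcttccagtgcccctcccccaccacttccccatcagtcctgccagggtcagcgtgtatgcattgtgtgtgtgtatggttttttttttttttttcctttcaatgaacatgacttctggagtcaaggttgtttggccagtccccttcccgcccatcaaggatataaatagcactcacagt
Abcb11: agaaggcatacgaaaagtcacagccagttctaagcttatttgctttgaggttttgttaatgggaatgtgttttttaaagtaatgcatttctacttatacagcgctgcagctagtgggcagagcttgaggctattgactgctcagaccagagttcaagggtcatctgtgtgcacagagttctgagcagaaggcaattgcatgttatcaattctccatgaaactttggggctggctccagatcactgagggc
Cyp8b1: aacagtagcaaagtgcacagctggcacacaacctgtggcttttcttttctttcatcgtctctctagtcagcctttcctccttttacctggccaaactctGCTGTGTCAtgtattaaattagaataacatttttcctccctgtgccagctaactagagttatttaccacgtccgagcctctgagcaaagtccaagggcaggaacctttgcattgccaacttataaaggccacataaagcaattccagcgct
Capitals mark matches to the motifs searched on both strands. In Nr0b2 they mark CACGTG at positions -186 to -181 from the start, the E box bound by CLOCK and BMAL1 among other factors. In Cyp8b1 they mark, on the opposite strand, TGACNNNGC at -151 to -143, the core letters of the antioxidant response element that Nrf2 binds. The Abcb11 sequence held no match.

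In 13636 windows from 250 bases before to 50 bases after a start, CACGTG was found in 9.68% and TGACNNNGC in 13.5%. Among the 9 genes whose windows were searched these were found in 3 and 1 windows, the other 2 with CACGTG being Cyp27a1 and Slc27a5. The nuclear receptor motif AGGTCA lay in the windows of Cyp7b1, Slc10a1, and Nr1h4 and in 13.8% of all windows, and TTATGNAA, a D box bound by the clock factor Dbp, lay in that of Slc10a1 and in 2.66% of all. The κB consensus, found in 5.05% of the windows, was in none of the 9. An exact inverted repeat of AGGTCA with 1 base between, a form that FXR binds, was in 0 of the 13636 windows. The search for this exact repeat therefore cannot set the 9 genes apart, and inexact repeats were not searched. A match is a description of the letters only.

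In control hepatocytes the levels of the 10 genes, compared as CPM per kilobase of transcript (CPM/kb, scaled to the effective library size), spanned a wide range. Slc10a1 was at 343 ± 23.9 CPM/kb (SD, n = 3) and Slc27a5 at 322 ± 27.3 CPM/kb, and their libraries overlapped. Cyp8b1 (187 ± 6.15 CPM/kb) and Cyp27a1 (183 ± 4.17 CPM/kb) followed and overlapped, as did Abcb11 (120 ± 6.37 CPM/kb) and Baat (120 ± 9.38 CPM/kb). The receptors Nr0b2 (40.7 ± 9.71 CPM/kb) and Nr1h4 (40 ± 5.1 CPM/kb) also overlapped. Cyp7b1 (15.7 ± 4.18 CPM/kb) and Cyp7a1 (5.14 ± 2.27 CPM/kb) were lowest on this measure, and their libraries did not overlap. The measure divides by the length of the canonical transcript, which is 11107 bases for Cyp7b1. In normalized counts the control mean of Cyp7b1 (6738) lay above those of Nr1h4 (3572) and Nr0b2 (1788). In p65 KO and DKO, Cyp7a1 reached 46.2 ± 31.1 (n = 2) and 47 ± 41.4 CPM/kb (n = 3), and the DKO libraries lay between 21.1 and 94.7 CPM/kb.

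The genes also varied differently between mice of one genotype. The SD of log2 normalized counts within genotypes was 0.89 for Cyp7a1, 0.49 for Cyp7b1, and 0.41 for Nr0b2, and between 0.08 and 0.18 for the other 7. Over the 10 libraries Cyp7a1 spanned 28.2-fold and Slc27a5 1.23-fold.

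**Figure D1:**
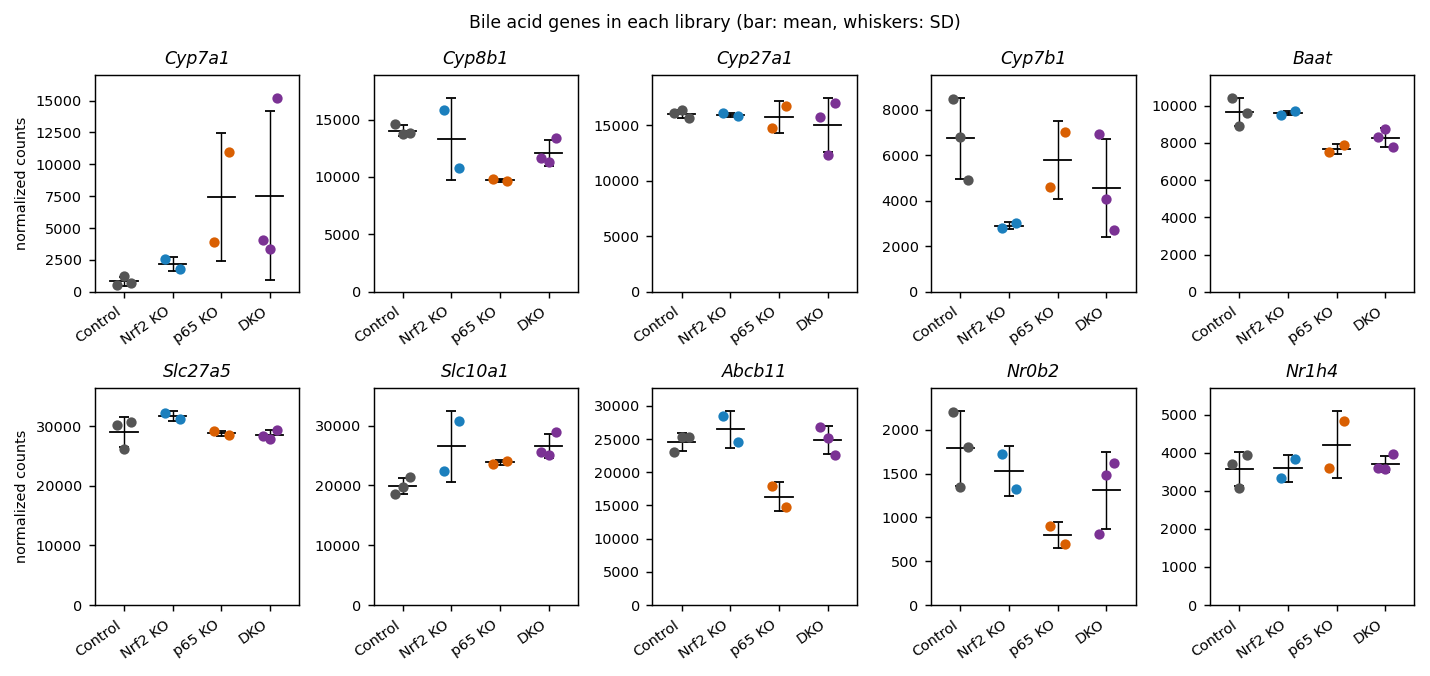
Normalized counts (TMM-scaled, linear axis from 0) of each gene in the 3 control, 2 Nrf2 KO, 2 p65 KO, and 3 DKO libraries, with 1 point per mouse, a bar for the mean, and whiskers for the SD. Cyp7a1 lay between 539 and 1236 in control and between 3393 and 15217 in p65 KO and DKO, whereas Slc27a5 stayed between 26260 and 32325 in all 10 libraries.

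The comparison of each knockout with control asks how hepatocyte gene expression depends on Nrf2, on p65, or on both. Below, a gene is said to have risen or fallen if its p-value, adjusted by the Benjamini-Hochberg method over all 13641 genes in edgeR's quasi-likelihood test, was at most 0.05. Fold changes are relative to the TMM scale. In p65 KO, 4 of the 10 genes passed (1 higher and 3 lower), while 14.9% of all genes tested passed (8.13% higher and 6.77% lower). With the libraries scaled to equal totals the split was 2 higher and 0 lower. That of all genes was then 1632 higher and 355 lower, against 1109 and 923 on the TMM scale. Cyp7a1 and Nr0b2 also changed by more than 1 on the log2 scale, as 6.59% of all genes did. In DKO, 1 of 10 passed and exceeded that change, beside 5.45% and 2.38% of all genes. In Nrf2 KO, 0 of 10 passed by edgeR, beside 0.726% of all genes (99) that passed and 0.55% that also exceeded that change. By DESeq2 1 (Cyp7b1) passed, beside 320 of all genes. An unadjusted p under 0.05 in edgeR was found for 3 (Cyp7a1, Cyp7b1, and Slc10a1), beside 9.38% of all genes. The median log2 fold change of the 10 genes was -0.12 in p65 KO, -0.06 in DKO, and within 0.01 of 0 in Nrf2 KO, whereas that of all genes tested lay between 0.00 and 0.02. All comparisons with control share its 3 libraries.

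Among the enzymes of the classical pathway, Cyp7a1 (ENSMUSG00000028240, chr4:6265612-6275633, minus strand) had 539, 1236, and 704 normalized counts in the control libraries, 2550 and 1799 in Nrf2 KO, 3882 and 10954 in p65 KO, and 4044, 3393, and 15217 in DKO. Every knockout library lay above every control library, and both p65 KO and all 3 DKO libraries lay above the Nrf2 KO libraries. The log2 fold change was 3.17 ± 0.64 (SE) in p65 KO (8.97-fold, 95% interval 3.37 to 23.9, adjusted p = 0.011) and 3.19 ± 0.61 in DKO (9.13-fold, 3.59 to 23.2, adjusted p = 0.0163). In Nrf2 KO it was 1.39 ± 0.62 (2.63-fold, 1.01 to 6.82, adjusted p = 0.521), which did not pass the test. DKO and p65 KO differed by a log2 fold change of 0.03 (95% interval -1.35 to 1.4, adjusted p = 0.986), and DKO and Nrf2 KO by 1.80 (0.32 to 3.27, adjusted p = 0.25). The interaction, the effect of the Nrf2 deletion in p65 KO mice less its effect in mice with p65, was -1.37 (-3.30 to 0.57, adjusted p = 0.509). The p65 KO call was lost without p65 KO library 2 (log2 fold change 2.23, adjusted p = 0.0718), and the DKO call without control library 1 (2.96, adjusted p = 0.0764) or control library 3 (3.09, adjusted p = 0.0505). Without DKO library 3, the highest of the 10, the log2 fold change in DKO was 2.18 (adjusted p = 0.0198).

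Genes of the circadian clock moved in the same comparisons as Cyp7a1, a gene known to follow a daily rhythm in liver. In p65 KO, 12 of 14 clock genes passed the test (9 higher and 3 lower), beside 14.9% of all genes. In DKO 8 of 14 passed (5 higher and 3 lower), beside 5.45% of all genes. In Nrf2 KO 0 of 14 passed, beside 0.726%, with 3 at an unadjusted p under 0.05, beside 9.38%, and 0 passed by DESeq2. Dbp, a clock output factor, had 45.3, 54.1, and 426 normalized counts in control, 87 and 1719 in Nrf2 KO, 3627 and 3589 in p65 KO, and 1271, 1621, and 2437 in DKO. By edgeR, Dbp passed in p65 KO (adjusted p = 0.0213) but not in DKO (adjusted p = 0.0747). Bmal1, a core activator of the clock, fell by 4.93 on the log2 scale in p65 KO (adjusted p = 0.000914) and fell by 2.16 in DKO (adjusted p = 0.0121), and Per3, a repressor, rose by 4.19 (adjusted p = 0.00198) and 2.98 (adjusted p = 0.0111). Within DKO, library 3 was the highest for both Dbp (2437) and Cyp7a1 (15217). The Nrf2 KO libraries were in opposite order, with 87 and 1719 counts of Dbp and 2550 and 1799 of Cyp7a1. In control, library 3 was the highest for Dbp (426) and library 2 for Cyp7a1 (1236). The p65 KO libraries were close for Dbp (3627 and 3589) and apart for Cyp7a1 (3882 and 10954). The mice were injected and killed in the morning, and the hour of each is not given in the sources used here. The part of these values in the Cyp7a1 result was not tested.

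**Figure D2:**
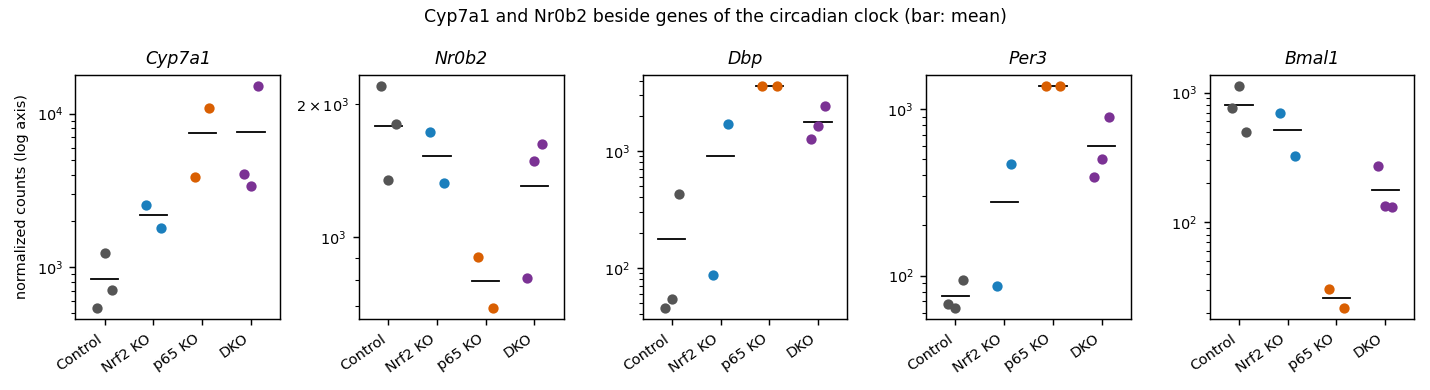
Normalized counts (log axis, range set per panel) of Cyp7a1, Nr0b2, and the clock genes Dbp, Per3, and Bmal1 in each library, with 1 point per mouse and a bar for the arithmetic mean. Both p65 KO libraries held at least 3589 counts of Dbp and at most 30.5 of Bmal1, and the DKO libraries lay between them and the control libraries for both genes.

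Cyp8b1 (ENSMUSG00000050445, chr9:121743422-121745371, minus strand) had 14570, 13750, and 13792 normalized counts in control, 15848 and 10796 in Nrf2 KO, 9821 and 9636 in p65 KO, and 11632, 11269, and 13368 in DKO. Both p65 KO libraries and all 3 DKO libraries lay below the control libraries. It fell by 0.53 ± 0.16 (SE) on the log2 scale in p65 KO (adjusted p = 0.0454). The log2 fold change in DKO was -0.22 (95% interval -0.52 to 0.09, adjusted p = 0.383), and DKO lay 0.31 above p65 KO (-0.03 to 0.66, adjusted p = 0.261). The p65 KO call was lost with DESeq2's size factors in edgeR (adjusted p = 0.0533), with equal totals (0.187), with equal upper quartiles (0.0569), and without any of the 3 control libraries, either p65 KO library, or DKO library 1 (between 0.0543 and 0.188).

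In the alternative pathway, Cyp7b1 (ENSMUSG00000039519, chr3:18117411-18297740, minus strand) had 8482, 6822, and 4910 normalized counts in control, 2808 and 3015 in Nrf2 KO, 4588 and 7005 in p65 KO, and 6919, 4082, and 2697 in DKO. Only the Nrf2 KO libraries lay apart from control, and DKO library 3 was as low as they were. The log2 fold change in Nrf2 KO was -1.21 (95% interval -2.00 to -0.42), with an unadjusted p of 0.00619 and an adjusted p of 0.235 by edgeR and an adjusted p of 0.0122 by DESeq2. It was -0.22 in p65 KO (-0.98 to 0.54, adjusted p = 0.709) and -0.56 in DKO (-1.24 to 0.12, adjusted p = 0.308). Cyp27a1 (ENSMUSG00000026170, chr1:74752314-74777056, plus strand) lay between 12321 and 17061 normalized counts in all libraries. Its log2 fold changes from control were -0.01 (-0.32 to 0.30), -0.03 (-0.34 to 0.28), and -0.09 (-0.37 to 0.18) in Nrf2 KO, p65 KO, and DKO, so that changes beyond about these bounds were outside the 95% intervals.

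Of the conjugating enzymes, Baat (ENSMUSG00000039653, chr4:49489289-49506563, minus strand) had 10419, 8917, and 9624 normalized counts in control, 9522 and 9692 in Nrf2 KO, 7494 and 7857 in p65 KO, and 8322, 8749, and 7750 in DKO. The p65 KO and DKO libraries all lay below the control libraries. The log2 fold change was -0.33 in p65 KO (95% interval -0.57 to -0.09, adjusted p = 0.0671 by edgeR and 0.0261 by DESeq2) and -0.22 in DKO (-0.44 to -0.01, adjusted p = 0.21), so Baat did not pass the edgeR test. Slc27a5 (ENSMUSG00000030382, chr7:12722273-12732137, minus strand) was the steadiest of the 10. Its log2 fold changes from control were 0.13 (-0.12 to 0.38), -0.01 (-0.26 to 0.24), and -0.03 (-0.25 to 0.20) in Nrf2 KO, p65 KO, and DKO.

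Of the transporters, Abcb11 (ENSMUSG00000027048, chr2:69068544-69173315, minus strand) had 23081, 25317, and 25374 normalized counts in control, 28410 and 24493 in Nrf2 KO, 17882 and 14824 in p65 KO, and 26875, 25179, and 22664 in DKO. The p65 KO libraries lay below all others, and the DKO libraries spread over the range of control. Abcb11 fell by 0.59 ± 0.14 (SE) on the log2 scale in p65 KO (adjusted p = 0.0185) and was 0.61 ± 0.14 higher in DKO than in p65 KO (1.52-fold, 95% interval 1.24 to 1.87, adjusted p = 0.0354), the 1 gene of the 10 that differed between these genotypes, beside 4.11% of all genes. The log2 fold change was 0.02 in DKO (-0.24 to 0.28) and 0.11 in Nrf2 KO (-0.19 to 0.40) relative to control, and the interaction was 0.50 (0.08 to 0.92, unadjusted p = 0.0231, adjusted p = 0.287). The p65 KO call was lost with equal totals (adjusted p = 0.0902) and without p65 KO library 2 (0.109). The difference from DKO was lost with equal totals (0.151), with only these 2 genotypes in the model (0.111), and without control library 2 or 3, either Nrf2 KO library, either p65 KO library, or DKO library 1 or 2 (between 0.0507 and 0.179).

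Slc10a1 (ENSMUSG00000021135, chr12:80996372-81015479, minus strand) had 18630, 19738, and 21381 normalized counts in control, 22348 and 30683 in Nrf2 KO, 23493 and 24154 in p65 KO, and 25642, 25130, and 28881 in DKO. Every knockout library lay above every control library. The log2 fold change was 0.41 in Nrf2 KO (95% interval 0.09 to 0.73, adjusted p = 0.352), 0.26 in p65 KO (-0.06 to 0.58, adjusted p = 0.251), and 0.41 in DKO (0.13 to 0.70, adjusted p = 0.094), and none of them passed the test. DESeq2 gave an adjusted p of 0.0208 in DKO, and edgeR with equal totals an adjusted p of 0.0483 in p65 KO. Libraries that did not overlap with control were found for 4 of the 10 genes in Nrf2 KO, beside 28.5% of all genes, for 6 in p65 KO (2 higher and 4 lower, beside 26.2% and 23.8%), and for 4 in DKO, beside 26.5%.

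Of the receptors, Nr0b2 (ENSMUSG00000037583, chr4:133280678-133283847, plus strand) had 2205, 1352, and 1805 normalized counts in control, 1728 and 1328 in Nrf2 KO, 905 and 693 in p65 KO, and 808, 1489, and 1627 in DKO. Both p65 KO libraries lay below all control libraries, and DKO library 1 lay with them while the other two lay within or near the range of control. Nr0b2 fell by 1.16 ± 0.30 (SE) on the log2 scale in p65 KO (0.447 of control, 95% interval 0.284 to 0.703, adjusted p = 0.0266). Its log2 fold change was -0.45 in DKO (-1.01 to 0.11, adjusted p = 0.32) and -0.23 in Nrf2 KO (-0.85 to 0.40, adjusted p = 0.883). DKO lay 0.71 above p65 KO (0.07 to 1.36, adjusted p = 0.185), and the interaction was 0.94 (0.04 to 1.84, unadjusted p = 0.0425, adjusted p = 0.343). The p65 KO call was lost with equal totals (adjusted p = 0.0511) and without control library 1 (0.0826), control library 3 (0.0563), p65 KO library 1 (0.0981), or p65 KO library 2 (0.141).

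Nr1h4 (ENSMUSG00000047638, chr10:89289742-89369497, minus strand), the receptor upstream of both Nr0b2 and Abcb11, had 3701, 3067, and 3950 normalized counts in control and 3589 and 4834 in p65 KO, which overlapped. Its log2 fold changes were 0.01 (95% interval -0.33 to 0.34), 0.24 (-0.09 to 0.57), and 0.05 (-0.24 to 0.35) in Nrf2 KO, p65 KO, and DKO. Between DKO and Nrf2 KO 0 of the 10 genes passed by edgeR, beside 0.513% of all genes (70), or by DESeq2, beside 504 genes. There 1 (Cyp7a1) had an unadjusted p under 0.05 in edgeR, beside 14.4%. For the interaction 0 passed by edgeR, beside 0.469% of all genes (64), or by DESeq2, beside 400 genes. Here 2 (Abcb11 and Nr0b2) had an unadjusted p under 0.05 in edgeR, beside 13.8%.

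**Figure D3:**
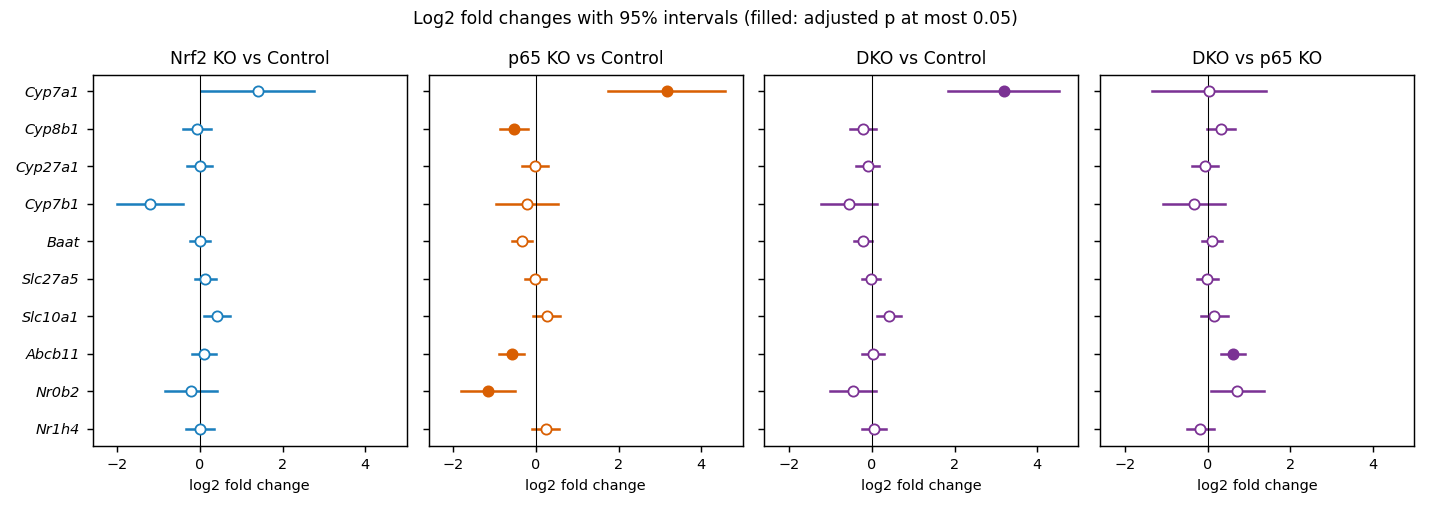
Log2 fold changes (points) with 95% intervals (lines) of the 10 genes for Nrf2 KO, p65 KO, and DKO relative to control and for DKO relative to p65 KO, with filled points for an adjusted p of at most 0.05. Cyp7a1, Cyp8b1, Abcb11, and Nr0b2 are filled for p65 KO, Cyp7a1 for DKO, and Abcb11 for DKO relative to p65 KO.

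The pathway has further genes, of which 46 were listed by role and 41 tested. Ch25h, Slc51a, Sult2a1, Fgf15, and Gpbar1 were not tested because their counts over all 10 libraries summed to between 0 and 7. In p65 KO 5 rose and 9 fell (beside 8.13% and 6.77% of all genes). With equal totals 6 rose and 3 fell there, beside 1632 and 355 of all genes, against 1109 and 923 on the TMM scale. In DKO 1 rose and 9 fell (beside 2.61% and 2.84% of all genes). In Nrf2 KO 0 rose and 3 fell (beside 0.594% of all genes that fell). By DESeq2 7 fell there, while 320 of all genes passed in either direction, against 99 by edgeR. The median log2 fold change of the 41 was -0.03 in p65 KO (0.15 with equal totals), -0.12 in DKO, and -0.14 in Nrf2 KO.

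Of 12 other enzymes of synthesis and side-chain shortening, 6 fell (beside 6.77% of all genes) and 0 rose (beside 8.13%) in p65 KO. They were Hsd3b7, which remodels the sterol nucleus (log2 fold change -0.73, adjusted p = 0.0139), and the peroxisomal genes of side-chain shortening Acox2 (-0.64, adjusted p = 0.0134), Hsd17b4 (-0.52, adjusted p = 0.0193), Scp2 (-0.51, adjusted p = 0.0352), Acot8 (-0.84, adjusted p = 0.0078), and Abcd3 (-0.84, adjusted p = 0.0216). With equal totals 3 of the 12 fell in p65 KO, beside 355 of all genes, against 923 on the TMM scale. Acox2 (-0.71, adjusted p = 0.0089), Hsd17b4 (-0.51, adjusted p = 0.0233), and Acot8 (-0.56, adjusted p = 0.0383) also fell in DKO. The DKO calls of Acot8 and Hsd17b4 were lost in 12 and 5 of 18 alternatives and that of Acox2 in 0, and the p65 KO calls of the 6 enzymes were lost in 1 to 8, Scp2 being the gene with 8. In Nrf2 KO 0 of the 12 passed by edgeR, beside 0.726% of all genes (99), and 1 by DESeq2, beside 320 genes. An unadjusted p under 0.05 in edgeR was found for 5, beside 9.38% of all genes. Acox2 had 9459, 8301, and 8785 normalized counts in control, 7150 and 6682 in Nrf2 KO, 6502 and 4854 in p65 KO, and 5165, 5409, and 5655 in DKO, so all knockout libraries lay below control.

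Of 15 other transporters, Abcc3, a basolateral exporter of conjugated bile acids and glucuronides and a known Nrf2 target, changed most. It had 9159, 11190, and 10670 normalized counts in control, 1048 and 137 in Nrf2 KO, 10123 and 7721 in p65 KO, and 337, 727, and 352 in DKO. It fell by 4.13 ± 0.71 (SE) on the log2 scale in Nrf2 KO (adjusted p = 0.0253) and fell by 4.45 ± 0.60 in DKO (adjusted p = 0.00304). Abcg2, an exporter of sulfated conjugates and drugs, fell in all 3 genotypes, with log2 fold changes of -1.16 (adjusted p = 0.0253), -0.75 (adjusted p = 0.0277), and -0.93 (adjusted p = 0.0138) in Nrf2 KO, p65 KO, and DKO. Abcb4, the canalicular phospholipid transporter, fell in p65 KO (-0.44, adjusted p = 0.0198) and DKO (-0.57, adjusted p = 0.00784), and the sterol transporters Abcg5 (-0.66, adjusted p = 0.0131) and Abcg8 (-0.75, adjusted p = 0.0168) fell in DKO. The aminophospholipid flippase gene Atp8b1 fell in p65 KO (-0.49, adjusted p = 0.0284), where Slco1a4, an organic anion uptake carrier, rose (1.19, adjusted p = 0.0373). With equal totals Abcg2, Abcb4, and Atp8b1 did not pass in p65 KO. The Nrf2 KO calls of Abcc3 and Abcg2 were lost in 7 and 6 of 18 alternatives, among them the model without any 1 of the control libraries, whereas the DKO call of Abcc3 was kept in all 18. For Abcc3 in Nrf2 KO the log2 fold change was -6.24 without Nrf2 KO library 1 and -3.30 without library 2. The p65 KO calls of Abcg2, Abcb4, Atp8b1, and Slco1a4 were lost in 5 or 6 of 18, and the DKO calls of Abcb4, Abcg2, Abcg5, and Abcg8 in 0 or 1.

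Slc10a2, the sodium-dependent bile acid carrier of ileum and bile duct cells, had 735, 705, and 775 normalized counts in control, 554 and 769 in Nrf2 KO, 1199 and 872 in p65 KO, and 1264, 2042, and 2200 in DKO. All DKO libraries lay above all others, and the log2 fold change of 1.31 ± 0.21 (SE) from control passed (adjusted p = 0.00704). The 7 cholangiocyte markers summed to between 6.99 and 10.3 CPM in control and between 5.2 and 9.09 CPM in DKO, 0 of the 3 that were tested passed in DKO by edgeR (1 fell by DESeq2, with equal totals, and with a mean of 10 counts as the filter), and Krt19 and Krt7 had 5 and 7 counts over all 10 libraries.

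Of 13 regulators, Hnf4a, an activator of Cyp7a1 and Cyp8b1, rose in p65 KO (log2 fold change 0.46, adjusted p = 0.0222), as did Rxra, the partner of FXR (0.49, adjusted p = 0.0492), Ppara (0.88, adjusted p = 0.0393), and Prox1, a homeobox factor known to bind Hnf4a and LRH-1 (0.88, adjusted p = 0.00993). Hnf4a had 20459, 19599, and 22455 normalized counts in control, 28132 and 29252 in p65 KO, and 18410, 19479, and 20049 in DKO, with p65 KO above all others. The calls of Rxra, Ppara, Hnf4a, and Prox1 were lost in 9, 5, 4, and 1 of 18 alternatives. Nr1i3, the constitutive androstane receptor, fell by 1.22 in Nrf2 KO (adjusted p = 0.0172) and fell by 1.47 in DKO (adjusted p = 0.00133) on the log2 scale. Its Nrf2 KO call was lost in 4 of 18 alternatives and its DKO call in 0. The receptor pair for the ileal hormone Fgf15, Fgfr4 and Klb, had log2 fold changes of at most 0.12 in the 3 knockouts, and Nr5a2 of 0.35 (95% interval 0.003 to 0.70), 0.24 (-0.11 to 0.59), and -0.003 (-0.32 to 0.31) in Nrf2 KO, p65 KO, and DKO.

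**Figure D4:**
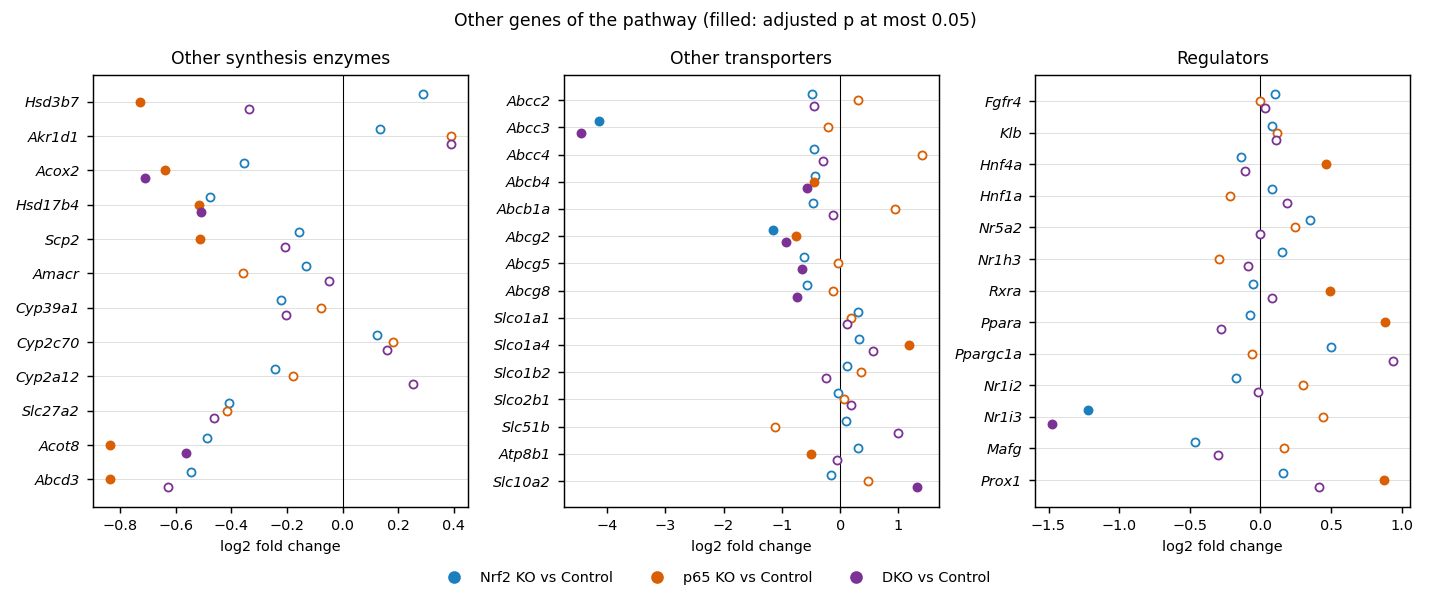
Log2 fold changes from control of 12 other synthesis enzymes, 15 other transporters, and 13 regulators in Nrf2 KO, p65 KO, and DKO, with filled points for an adjusted p of at most 0.05 and a separate linear axis for each panel. Abcc3 lay at -4.13 in Nrf2 KO and -4.45 in DKO, and 6 of the 12 enzymes are filled below 0 in p65 KO.

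Several facts of the whole series stand beside these results. The libraries held 33707165 to 49897382 counts. The totals of the targeted genes cannot check the labels, because the table gives 1 total per gene and not the deleted exons: Nfe2l2, which encodes Nrf2, was 1.21 higher on the log2 scale in Nrf2 KO and 1.02 higher in DKO, and Rela differed by -0.07 in p65 KO. The 10 hepatocyte markers summed to between 93700 and 148000 CPM in all libraries. Kupffer cell markers summed to between 9.83 and 24.8 CPM in control, 6.84 and 21.1 in Nrf2 KO, 116 and 158 in p65 KO, and 43.1 and 75.9 in DKO, 12 of 12 rose in p65 KO, and none was at 0 in every library of a genotype. Markers of sinusoidal endothelial cells (8 of 8) and stellate cells (6 of 8) also rose in p65 KO, where 8.13% of all genes rose. These values moved with the p65 KO results above, and their part in them was not tested. Fewer cells of a type and less RNA per cell cannot be told apart in such samples. Of all genes that passed in p65 KO, 54.6% were higher on the TMM scale and 82.1% with equal totals, a scaling that shifted the median of the 10185 more abundant genes by 0.18 in p65 KO and by -0.27 between DKO and p65 KO on the log2 scale. The corresponding shares were 47.9% and 27.4% in DKO, 49.9% and 7.7% between DKO and p65 KO, and 62.9% and 48.2% between DKO and Nrf2 KO.

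Likeness of profile was measured over the 10 libraries as the root mean square difference of centred log2 normalized counts, among 10185 genes whose mean reached 50 normalized counts. The closest to Nr0b2 was Spart (0.27, against 0.52 for Nr0b2 itself), to Abcb11 Dguok (0.09, against 0.27), and to Cyp8b1 Cyb561a3 (0.10, against 0.23).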

How the data were processed

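The authors sequenced RNA of freshly isolated hepatocytes as single-end reads of poly-A selected, strand-specific libraries and quantified it with Salmon 1.10.3 (GRCm39, GENCODE M33). The deposited table holds 1 estimated count per gene and mouse, as a whole number. Although its name calls it normalized, library totals differed, as did size factors by the median-ratio method (0.879 to 1.26), so the deposited values were taken as raw estimated counts. How transcripts were combined into genes is not given in the sources used here. The authors' own test was DESeq2 1.42.1.

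Groups were taken from the labels. Genes with 10 or more counts over all libraries (13641) entered the quasi-likelihood test of edgeR 4.0.16 (R 4.3.3) with TMM scaling and 1 model for the 10 libraries, with Benjamini-Hochberg adjustment within each comparison. Each knockout was compared with control, DKO also with both single knockouts, and the interaction was tested. The threshold was an adjusted p of 0.05, and genes also past a log2 fold change of 1, up or down, are counted separately. Intervals (95%) used the standard error and the moderated degrees of freedom. P-values rest on a spread between mice that was estimated over all 10 libraries and moderated across genes. Each genotype had 2 or 3 mice. Levels per kilobase used canonical transcripts of GENCODE M39, which held 21926 of the 21939 identifiers, and promoters were read from GRCm39, the build of the files, with the promoter of Cyp7a1 and its nearest profiles not reported here. Replicates differed by chi-square values per degree of freedom of 46.9 to 215, so none was a copy of another.

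The rule was to name the 10 genes, Nfe2l2, Rela, and the 3 nearest profiles of each gene. It also covered other pathway and clock genes past both thresholds against control (at most 8 per comparison) or set beside a result. The text does not name all of these: of the clock genes it names Dbp, Per3, and Bmal1. Of the nearest profiles it gives only the closest to Nr0b2, Abcb11, and Cyp8b1. Pathway genes that passed only the p-value threshold, the receptors Fgfr4, Klb, and Nr5a2, and the choice among nearest profiles were chosen with their values already in view. The genes and lists were chosen with earlier results of these data known. The fit was also run on counts simulated from its own model and estimated spread, which cannot show how well that model holds for these mice. Alternatives were DESeq2 1.42.0, its size factors in edgeR, equal totals, equal upper quartiles, no filter, a mean of 10 counts as the filter, a block for the replicate number, a model of only the genotypes compared, and the removal of each library. Plots were made with matplotlib 3.10.9.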

Additional observations from a re-analysis of the deposited data

How the results depend on the processing

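Over the 10 genes and 6 comparisons, 430 results kept their direction and their side of the threshold under the alternatives that kept all libraries, 10 lost a call, 4 gained one, and 26 turned sign. With 1 library left out, 542 kept both, 22 lost a call, and 36 turned sign. No call turned sign. The lost and gained calls of single genes are given with their values beside each gene, or further on for the replicate block, and the causes were not tested. The lowest value of the 10 genes was 539 normalized counts, and each single knockout had 2 mice. In the following, passed means an adjusted p of at most 0.05, each count is set against that of the reported fit, and of the signs that turned none belonged to a call.

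With DESeq2's size factors in edgeR, the sign of the log2 fold change turned for Nr1h4 at -0.0032 for Nrf2 KO against control, and Slc27a5 at 0.0021 for p65 KO against control. With equal totals, p65 KO against control gave 2 of the 10 genes higher against 1, 0 of the 10 genes lower against 3, 1 of the 10 genes also past a log2 fold change of 1 against 2, and 3 other pathway genes lower against 9. DKO against p65 KO gave 0 of the 10 genes higher against 1, 1753 genes passed against 561, and 504 genes also past a log2 fold change of 1 against 243. The interaction gave 140 genes passed against 64, and 118 genes also past a log2 fold change of 1 against 62. With equal totals, the sign of the log2 fold change turned for Cyp27a1 at 0.15 for p65 KO against control, Slc27a5 at 0.17 for p65 KO against control, Abcb11 at -0.075 for DKO against control, Nr1h4 at -0.033 for DKO against control, Slc10a1 at -0.086 for DKO against Nrf2 KO, Nr1h4 at -0.044 for DKO against Nrf2 KO, Cyp7a1 at -0.26 for DKO against p65 KO, Baat at -0.16 for DKO against p65 KO, Slc10a1 at -0.11 for DKO against p65 KO, and Baat at -0.16 for the interaction. With equal upper quartiles, the sign of the log2 fold change turned for Cyp27a1 at 0.0032 for Nrf2 KO against control, Baat at 0.0042 for Nrf2 KO against control, Slc27a5 at 0.0042 for p65 KO against control, Slc27a5 at 0.013 for DKO against control, and Slc27a5 at 0.0087 for DKO against p65 KO. With DESeq2, Nrf2 KO against control gave 1 of the 10 genes lower against 0, 1 of the 10 genes also past a log2 fold change of 1 against 0, 320 genes passed against 99, 135 genes also past a log2 fold change of 1 against 75, and 7 other pathway genes lower against 3. DKO against control gave 2 of the 10 genes higher against 1, 1446 genes passed against 743, and 534 genes also past a log2 fold change of 1 against 325. DKO against Nrf2 KO gave 504 genes passed against 70, and 296 genes also past a log2 fold change of 1 against 59. DKO against p65 KO gave 1291 genes passed against 561, and 453 genes also past a log2 fold change of 1 against 243. The interaction gave 400 genes passed against 64, and 249 genes also past a log2 fold change of 1 against 62. With DESeq2, the sign of the log2 fold change turned for Nr1h4 at -0.0032 for Nrf2 KO against control, and Slc27a5 at 0.0021 for p65 KO against control. With no filter, DKO against Nrf2 KO gave 149 genes passed against 70, and 112 genes also past a log2 fold change of 1 against 59. The interaction gave 143 genes passed against 64, and 137 genes also past a log2 fold change of 1 against 62. With a mean of at least 10 counts, the sign of the log2 fold change turned for Slc27a5 at 0.0042 for p65 KO against control. With only the genotypes compared, DKO against control gave 417 genes passed against 743, and 215 genes also past a log2 fold change of 1 against 325. DKO against Nrf2 KO gave 20 genes passed against 70, and 18 genes also past a log2 fold change of 1 against 59. DKO against p65 KO gave 0 of the 10 genes higher against 1, 116 genes passed against 561, and 105 genes also past a log2 fold change of 1 against 243.

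The groups share replicate numbers, but the labels do not say what a number marks. Of 13 pairs of libraries with the same number, 1 had a correlation of deviations from the genotype means over 0.1 (range -0.23 to 0.11). Of 24 pairs with other numbers, 6 did (-0.17 to 0.23). In a genotype with 2 libraries the deviations mirror each other, so these values cannot settle whether the numbers pair the mice. The reported fit left the numbers out, and a block for them was run as an alternative. The block removed the p65 KO calls of Cyp8b1 (adjusted p = 0.0883) and Nr0b2 (0.0635) and the difference of Abcb11 between DKO and p65 KO (0.0718). With the replicate number as a block, Nrf2 KO against control gave 60 genes passed against 99, and 1 other pathway gene lower against 3. p65 KO against control gave 1 of the 10 genes lower against 3, 1 of the 10 genes also past a log2 fold change of 1 against 2, 1178 genes passed against 2032, and 3 other pathway genes lower against 9. DKO against control gave 454 genes passed against 743. DKO against Nrf2 KO gave 39 genes passed against 70, and 37 genes also past a log2 fold change of 1 against 59. DKO against p65 KO gave 0 of the 10 genes higher against 1, and 294 genes passed against 561. With the replicate number as a block, the sign of the log2 fold change turned for Cyp27a1 at 0.029 for Nrf2 KO against control, Cyp27a1 at 0.011 for p65 KO against control, Slc27a5 at 0.021 for p65 KO against control, Slc10a1 at -0.047 for DKO against Nrf2 KO, Nr1h4 at -0.0093 for DKO against Nrf2 KO, and Cyp7a1 at -0.44 for DKO against p65 KO.

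Without 1 library at a time, Nrf2 KO against control gave 18 to 119 genes passed, 18 to 84 genes also past a log2 fold change of 1, and 0 to 3 other pathway genes lower. Without 1 library at a time, p65 KO against control gave 0 to 3 of the 10 genes lower, 0 to 2 of the 10 genes also past a log2 fold change of 1, 452 to 2139 genes passed, 325 to 954 genes also past a log2 fold change of 1, 1 to 6 other pathway genes higher, 3 to 9 other pathway genes lower, and 0 to 1 of the 10 genes higher. Without 1 library at a time, DKO against control gave 0 to 1 of the 10 genes higher, 0 to 1 of the 10 genes also past a log2 fold change of 1, 229 to 663 genes passed, and 147 to 316 genes also past a log2 fold change of 1. Without 1 library at a time, the interaction gave 8 to 127 genes passed, and 8 to 119 genes also past a log2 fold change of 1. Without 1 library at a time, DKO against p65 KO gave 0 to 1 of the 10 genes higher, 85 to 610 genes passed, and 70 to 294 genes also past a log2 fold change of 1. Without 1 library at a time, DKO against Nrf2 KO gave 18 to 95 genes passed, and 18 to 81 genes also past a log2 fold change of 1. Log2 fold changes that crossed 0 for Nrf2 KO against control ranged from -0.061 to 0.051 for Baat, from -0.030 to 0.0064 for Cyp27a1, from -0.099 to 0.10 for Nr1h4, from -0.0059 to 0.21 for Abcb11, and from -0.38 to 0.17 for Cyp8b1. Log2 fold changes that crossed 0 for p65 KO against control ranged from -0.082 to 0.025 for Slc27a5, from -0.12 to 0.061 for Cyp27a1, and from -0.55 to 0.057 for Cyp7b1. Log2 fold changes that crossed 0 for DKO against control ranged from -0.094 to 0.018 for Slc27a5, from -0.035 to 0.087 for Abcb11, from -0.044 to 0.13 for Nr1h4, and from -0.19 to 0.030 for Cyp27a1. Log2 fold changes that crossed 0 for DKO against Nrf2 KO ranged from -0.39 to 0.16 for Cyp8b1, from -0.21 to 0.25 for Slc10a1, from -0.19 to 0.024 for Abcb11, from -0.048 to 0.15 for Nr1h4, from -0.40 to 0.035 for Nr0b2, and from -0.18 to 0.039 for Cyp27a1. Log2 fold changes that crossed 0 for DKO against p65 KO ranged from -0.99 to 0.96 for Cyp7a1, from -0.029 to 0.0045 for Slc27a5, from -0.16 to 0.058 for Cyp27a1, and from -0.38 to 0.048 for Nr1h4. Log2 fold changes that crossed 0 for the interaction ranged from -0.15 to 0.067 for Cyp27a1, and from -0.39 to 0.042 for Nr1h4.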
